A study of Saccharomyces cerevisiae with 3 samples.

Results

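The VPS genes of budding yeast were named for the vacuolar protein sorting defect of their mutants, and they were examined here across 3 genotypes of haploid cells aged to Day 3. A probe set was taken as a member when its annotated symbol was VPS followed only by digits, and 40 of the 5498 S. cerevisiae probe sets with 1 gene symbol met this rule, each from a different gene. RNA from rtg3Δ met15Δ, met15Δ and wild-type cells had been hybridized to Affymetrix Yeast Genome 2.0 arrays after growth in liquid synthetic complete medium. The comparisons address how the loss of MET15, which blocks the making of methionine from sulfide, alters expression in aged cells, and how far that depends on RTG3, which encodes a transcription factor of the retrograde response from mitochondria to nucleus. By the study's methods the strains come from the BY4741/BY4742 background, so that wild-type cells also carry his3Δ1, leu2Δ0 and ura3Δ0, and gene deletions other than met15Δ0 and lys2Δ0 carry the KanMX marker. No rtg3Δ strain with an intact MET15 was among the samples, so RTG3 can be assessed only in cells that lack MET15. There was 1 array per genotype, no value has an error, and no test between genotypes could be made: each ratio describes a pair of arrays. All 3 comparisons draw on the same 3 arrays.

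In yeast, newly made vacuolar hydrolases leave the Golgi bound to a sorting receptor, pass through endosomes and end in the vacuole, the organelle that degrades protein and stores amino acids. Phosphatidylinositol 3-phosphate marks the endosome, ESCRT complexes fold membrane proteins into its lumen, retromer returns receptors to the Golgi, GARP tethers the returning vesicles there, and CORVET and HOPS tether membranes for fusion at the endosome and the vacuole. Several VPS genes act elsewhere, among them members that bind chromatin.

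The signals of the deleted genes fitted the labels. The probe set of MET17, the standard name of MET15, gave 89.9 in rtg3Δ met15Δ and 85.0 in met15Δ cells, against 2874 in wild-type. RTG3 gave 28.7 in rtg3Δ met15Δ cells, against 2215 in met15Δ and 2703 in wild-type. HMRA1 probes, which match sequence also present at the mating-type locus of a cells, gave 5016, 4073 and 47.1 in rtg3Δ met15Δ, met15Δ and wild-type cells, and those of HMLALPHA1, the counterpart for alpha cells, gave 59.7, 71.5 and 977. In comparisons with wild-type, mating type and loss of MET15 thus cannot be told apart.

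All 40 members were measured on every array, and their signals spanned 217 to 7413 in rtg3Δ met15Δ, 229.6 to 7604 in met15Δ and 166 to 8503 in wild-type cells. The 1746 probe sets with 1 gene symbol and no match among the current S. cerevisiae genes were taken as those of another species. They gauge what an array reports in the absence of a matching transcript. The highest of them reached 289 in rtg3Δ met15Δ, 273 in met15Δ and 273 in wild-type cells. Under that value lay 1 member in rtg3Δ met15Δ, 1 in met15Δ and 5 in wild-type cells. VPS51 lay there on all 3 arrays, and VPS16, VPS25, VPS73 and VPS75 in wild-type alone. A fold against such a signal is given as a lower bound, taken against the highest signal of the other species. The median over the VPS genes was 1579.7, 1682 and 1219 in rtg3Δ met15Δ, met15Δ and wild-type cells, beside medians of 1457, 1552 and 1504 over the S. cerevisiae probe sets.

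**Figure D1:**
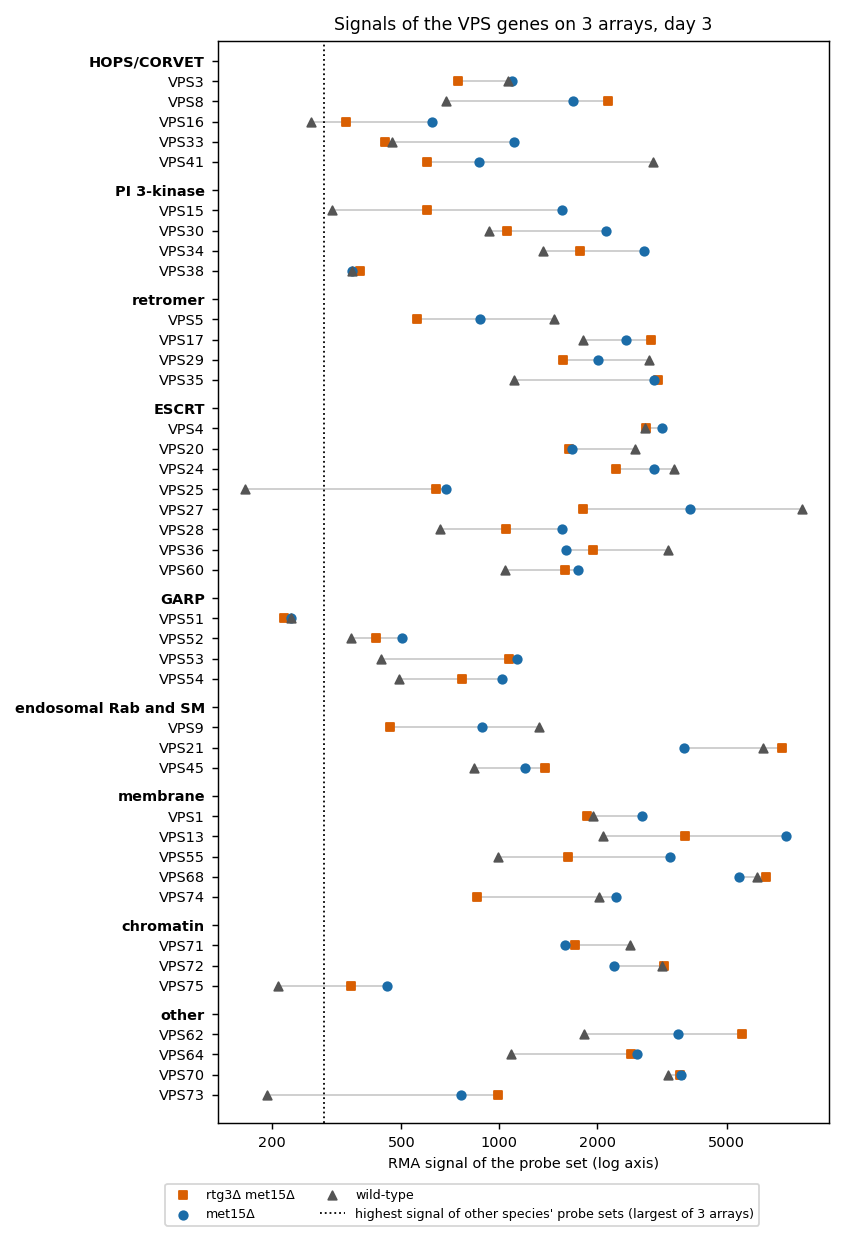
Signal of each of the 40 VPS genes (log axis, RMA units) in rtg3Δ met15Δ (squares), met15Δ (circles) and wild-type cells (triangles), 1 array each, grouped by complex or role. The dotted line marks 289, the highest signal of another species' probe set on the 3 arrays, and the 5 members whose wild-type triangle lies left of it are VPS16, VPS25, VPS51, VPS73 and VPS75.

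Relative to wild-type, more VPS genes stood higher than lower in met15Δ cells. By the 2-fold rule of the study's methods, 16 of the 40 were at least 2-fold higher, beside 16.8% of all S. cerevisiae probe sets, and 3 were at least 2-fold lower, beside 11.1%. The median log2 ratio was 0.51 over the VPS genes and 0.07 over all S. cerevisiae probe sets, a gap of 0.44. In bulk RNA, fewer cells in a given state and less transcript per cell cannot be told apart. The members higher in met15Δ cells held parts of both tethering complexes, most of the phosphatidylinositol 3-kinase subunits, the cargo-binding subunit of retromer and a pair of GARP subunits. The 3 lower members were VPS41, VPS27 and VPS36. How many members pass depends on the scaling between arrays: 7 were higher and 5 lower when each array was divided by the median of all its probe sets (10.4% and 17.5% of all S. cerevisiae probe sets), and 21 were higher and 1 lower when it was divided by its bacterial hybridization controls (33.5% and 4.84%). With the S. cerevisiae median as the scale, 15 were higher and 3 lower (15.5% and 11.9%). The all-probe median was 203 in rtg3Δ met15Δ, 177 in met15Δ and 144 in wild-type cells. On each array it lay under the highest other-species signal, so that scale rests on weak signals. The S. cerevisiae medians given above varied less between arrays, as did the other-species medians (29.5, 29.0 and 29.4 in the same order).

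Deletion of RTG3 in met15Δ cells went with lower signals for most members. In rtg3Δ met15Δ against met15Δ cells, 28 of the 40 log2 ratios were below 0 (2834 of 5498 over all S. cerevisiae probe sets), with medians of -0.22 and -0.03. At least 2-fold lower were 7 members, beside 10.6% of all S. cerevisiae probe sets, namely VPS13, VPS15, VPS27, VPS30, VPS33, VPS55 and VPS74. Only VPS21 was at least 2-fold higher, beside 10.4%. Scaled to the S. cerevisiae median 4 members were lower, beside 8.40% of all S. cerevisiae probe sets. With the median of all probe sets 9 were lower, beside 16.1%, and with the bacterial controls 20, beside 39.9%, and VPS21 passed under neither of these 2 scalings.

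Set against wild-type, rtg3Δ met15Δ cells had 7 members at least 2-fold higher, beside 21.1% of all S. cerevisiae probe sets, and 5 at least 2-fold lower, beside 17.2%. The higher ones were VPS8, VPS25, VPS35, VPS53, VPS62, VPS64 and VPS73, and the lower ones VPS5, VPS9, VPS27, VPS41 and VPS74. These shares are close to the background. With the median of all probe sets the split was 4 higher and 11 lower, also close to the 11.2% and 29.0% over all S. cerevisiae probe sets.

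The plot of the ratio distributions shows where the VPS genes left the rest of the genome.

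**Figure D2:**
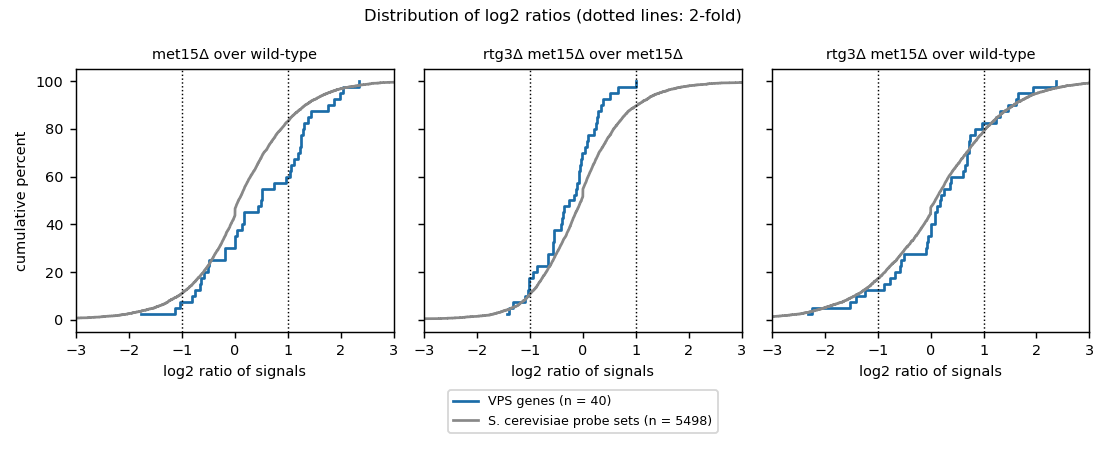
Cumulative percent of the 40 VPS genes (blue) and of the 5498 S. cerevisiae probe sets (grey) up to each log2 ratio of signals, for the 3 comparisons; dotted lines mark 2-fold. In met15Δ over wild-type the blue line lies right of the grey one through its upper part (median 0.51 against 0.07). In rtg3Δ met15Δ over met15Δ it lies left of the grey one at the median (-0.22 against -0.03), but not below the lowest VPS ratio of -1.42.

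The study's methods call a change dependent on RTG3 when it is at least 2-fold smaller in the double mutant. Of the 16 members higher in met15Δ cells, 5 met this rule (31.2%, beside 15% of all S. cerevisiae probe sets that were higher), and none of the 3 lower members did (5 of 19 in all, or 26.3%, beside 18.8%). The 5 were VPS13, VPS15, VPS30, VPS33 and VPS55. Of the 16, 13 had a lower signal in rtg3Δ met15Δ than in met15Δ cells (median log2 ratio -0.49), 10 were within 2-fold of wild-type in the double mutant and 6 remained at least 2-fold above it. The 16 were picked by a high met15Δ signal, which is also the base of this ratio, so the selection itself favors a fall. These counts were not taken over all S. cerevisiae probe sets that were higher, so they describe the members only. VPS15 and VPS33 alone met the rule with the S. cerevisiae median as the scale, since VPS13, VPS30 and VPS55 lay close to 2-fold.

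HOPS and CORVET are hexamers that share a core of 4 subunits, encoded by VPS16, VPS33, PEP3 and PEP5, and differ in the pair that binds a Rab GTPase. All 4 core genes were at least 2-fold higher in met15Δ relative to wild-type cells, beside 16.8% of all S. cerevisiae probe sets. The complex-specific genes were mixed. VPS33, the subunit that guides SNARE proteins into complexes, had signals of 446 in rtg3Δ met15Δ, 1113 in met15Δ and 467 in wild-type cells. Its met15Δ signal was 2.38-fold that of wild-type, and the double mutant stood 2.50-fold below met15Δ and within 1.05-fold of wild-type. VPS16, which binds Vps33 in both complexes, had signals of 339, 620.2 and 264 in rtg3Δ met15Δ, met15Δ and wild-type cells. It was at least 2.27-fold higher in met15Δ relative to wild-type, and its log2 ratio of rtg3Δ met15Δ over met15Δ was -0.87.

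The remaining core subunits carry PEP names. PEP5 had signals of 289, 703 and 268 in rtg3Δ met15Δ, met15Δ and wild-type cells, at least 2.57-fold higher in met15Δ relative to wild-type and at least 2.43-fold lower in the double mutant than in met15Δ, since its signal there equalled the highest of the other species. PEP3 gave 745, 1046 and 410.2 in the same order, 2.55-fold higher in met15Δ relative to wild-type. All 4 core genes thus had their highest signal in met15Δ cells, and of the 4, VPS33 and PEP5 met the RTG3 rule. Scaled to the median of all probe sets, VPS16 and VPS33 kept their direction but fell short of 2-fold, with log2 ratios of met15Δ over wild-type of 0.93 and 0.95.

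The CORVET subunit VPS8, which binds the Rab Vps21 on endosomes, gave 2154 in rtg3Δ met15Δ, 1688 in met15Δ and 685 in wild-type cells. It was 3.15-fold higher in rtg3Δ met15Δ and 2.47-fold higher in met15Δ relative to wild-type (log2 ratio of met15Δ 0.998, just under 2-fold, with the median of all probe sets). VPS3, the other CORVET subunit, gave 749, 1091 and 1063 in rtg3Δ met15Δ, met15Δ and wild-type cells. The HOPS subunit VPS41, which binds the vacuolar Rab Ypt7, ran the other way, with 598 in rtg3Δ met15Δ, 869 in met15Δ and 2976 in wild-type cells. It was 3.43-fold lower in met15Δ and 4.98-fold lower in rtg3Δ met15Δ relative to wild-type. VAM6, its HOPS partner, was within 2-fold in every comparison (680, 799 and 703). The core genes shared a direction in met15Δ cells, whereas in the pair of each complex 1 gene passed 2-fold and the other did not.

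**Figure D3:**
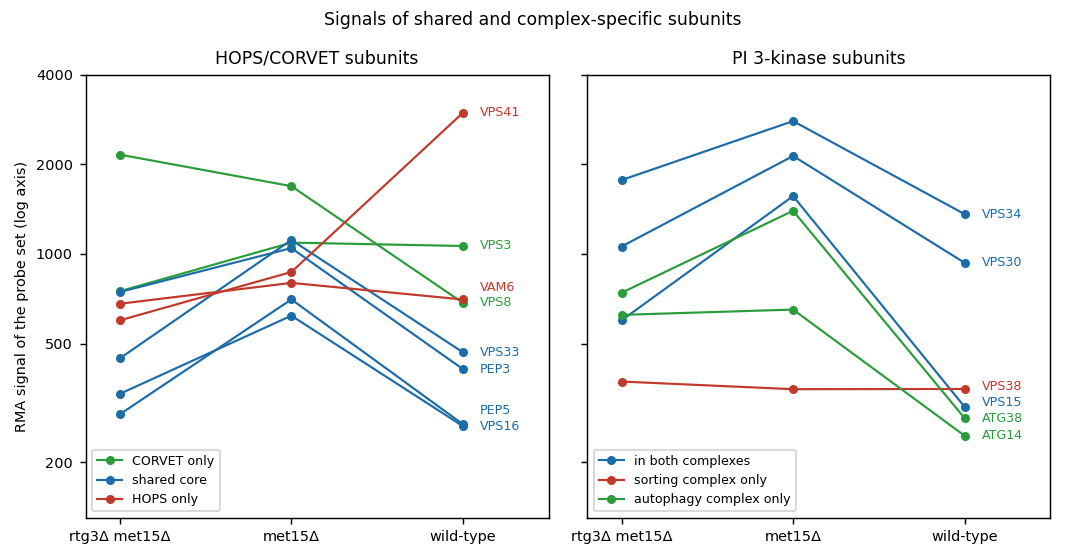
Signals (log axis, RMA units) of the HOPS/CORVET subunits (left panel) and of the phosphatidylinositol 3-kinase subunits (right panel) in rtg3Δ met15Δ, met15Δ and wild-type cells, 1 array each; lines join the signals of 1 gene, and colors separate shared subunits from those of 1 complex. The 4 shared HOPS/CORVET genes peak in met15Δ cells, as do VPS15, VPS30 and VPS34, whereas VPS41 is highest in wild-type cells (2976) and VPS38 stays between 351 and 373.

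Vps34 is the phosphatidylinositol 3-kinase of budding yeast, and it works with Vps15 and Vps30 in a pair of complexes: one with Atg14 and Atg38 starts autophagosomes, the other with Vps38 serves sorting at endosomes. VPS15, the protein kinase-like subunit that anchors Vps34 to membranes, gave 598 in rtg3Δ met15Δ, 1563 in met15Δ and 306 in wild-type cells. Its met15Δ signal was 5.10-fold that of wild-type, and the double mutant stood 2.61-fold below met15Δ. The 5.10-fold was the largest ratio of any VPS gene in that comparison on the deposited signals as measured. The rank is not settled, because the wild-type signal of VPS15 lay little above the highest other-species signal of 273. The folds of VPS25 and VPS73 over wild-type are also only lower bounds. VPS34 itself gave 1769, 2791 and 1359.6 in rtg3Δ met15Δ, met15Δ and wild-type cells, 2.05-fold higher in met15Δ relative to wild-type and so only just past the threshold. VPS30, the yeast Beclin, gave 1058, 2131 and 933 in the same order, 2.28-fold higher in met15Δ relative to wild-type and 2.01-fold lower in rtg3Δ met15Δ than in met15Δ.

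The subunits that tell the complexes apart did not have the same pattern. VPS38 gave 373, 351 and 352 in rtg3Δ met15Δ, met15Δ and wild-type cells, a log2 ratio between 0.00 and 0.09 in size in each comparison. These signals lay little above the highest other-species signals of 289, 273 and 273, where a flat ratio is less sure. ATG38 gave 740.3, 1395 and 281 in the same order, 4.97-fold higher in met15Δ relative to wild-type. The wild-type signal of ATG38 also lay just above the 273 of the other species, so the size of this fold is less sure. ATG14 gave 624, 650.0 and 245, at least 2.38-fold higher in met15Δ relative to wild-type and at least 2.28-fold higher in rtg3Δ met15Δ relative to wild-type. Of the 6 genes of the kinase complexes, 5 were thus at least 2-fold higher in met15Δ relative to wild-type cells (83.3%, beside 16.8% of all S. cerevisiae probe sets). VPS38, found only in the sorting complex, was the exception. Scaled to the median of all probe sets, VPS30 (0.89) and VPS34 (0.73) had log2 ratios of met15Δ over wild-type under 2-fold. VPS38 shares bases with DCR2 in the current annotation. The division into shared and complex-specific subunits was made after the values were seen.

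Retromer moves as a cargo-binding trimer with a dimer of sorting nexins. VPS35, the subunit that recognizes receptor tails, gave 3066 in rtg3Δ met15Δ, 2995 in met15Δ and 1111 in wild-type cells, so that rtg3Δ met15Δ stood 2.76-fold and met15Δ 2.69-fold above wild-type. Scaled to the median of all probe sets, its log2 ratio of rtg3Δ met15Δ over wild-type was 0.97, under 2-fold. No other retromer gene was 2-fold higher in either mutant on the deposited signals. VPS29 gave 1564, 2009 and 2878 in rtg3Δ met15Δ, met15Δ and wild-type cells, and PEP8, which encodes the third trimer subunit, gave 1151, 1790.5 and 2529. Both were within 2-fold in met15Δ against wild-type, while PEP8 was 2.20-fold lower in rtg3Δ met15Δ relative to wild-type.

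The sorting nexins of the dimer split. VPS5 gave 557 in rtg3Δ met15Δ, 874 in met15Δ and 1476 in wild-type cells, 2.65-fold lower in the double mutant than in wild-type; its gene overlaps VAM10, and the sources used here do not say whether its probes separate the 2. VPS17, which pairs with Vps5, gave 2925, 2446 and 1809, with its highest signal in the double mutant. Across the retromer VPS genes the median log2 ratio of met15Δ over wild-type was -0.04.

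The ESCRT genes with VPS names went both ways in met15Δ cells, with 2 of 8 higher and 2 lower (25% each, beside 16.8% and 11.1% of all S. cerevisiae probe sets). The split ran through ESCRT-II. VPS27, the ESCRT-0 subunit that gathers ubiquitinated cargo on the endosome, gave 1808 in rtg3Δ met15Δ, 3855 in met15Δ and 8503 in wild-type cells. It was 2.21-fold lower in met15Δ relative to wild-type and a further 2.13-fold lower in the double mutant, a total of 4.70-fold. HSE1, its ESCRT-0 partner, gave 5115, 2587 and 2586, with the high signal in the double mutant. The 2 genes of this heterodimer therefore had opposite orders in rtg3Δ met15Δ and met15Δ cells.

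For ESCRT-I, VPS28 gave 1052 in rtg3Δ met15Δ, 1554 in met15Δ and 656 in wild-type cells, 2.37-fold higher in met15Δ relative to wild-type (log2 ratio 0.94, under 2-fold, with the median of all probe sets). MVB12 (1287, 1112 and 511 in rtg3Δ met15Δ, met15Δ and wild-type cells) was 2.18-fold higher in met15Δ relative to wild-type. STP22, which binds ubiquitin for the complex, gave 961, 497 and 220.3, at least 1.82-fold higher in met15Δ and at least 3.52-fold higher in rtg3Δ met15Δ relative to wild-type. SRN2, the remaining subunit, gave 653, 1998 and 1124, and was 3.06-fold lower in the double mutant than in met15Δ. No ESCRT-I gene was lower in met15Δ relative to wild-type.

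ESCRT-II is built from a pair of Vps25 proteins with 1 each of Vps36 and Snf8. VPS25 gave 637 in rtg3Δ met15Δ, 685 in met15Δ and 166 in wild-type cells, at least 2.51-fold higher in met15Δ and at least 2.33-fold higher in rtg3Δ met15Δ relative to wild-type. VPS36, which binds phosphatidylinositol 3-phosphate and ubiquitin, gave 1946, 1603 and 3309, 2.06-fold lower in met15Δ relative to wild-type and 1.70-fold lower in the double mutant than in wild-type. SNF8 was within 2-fold throughout (1259.7, 1149 and 1114). VPS25 and VPS36 thus lay on opposite sides of wild-type in both mutants. Scaled to the bacterial controls, VPS27 (-0.60) and VPS36 (-0.51) had log2 ratios of met15Δ over wild-type short of 2-fold.

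ESCRT-III forms the filament that cuts vesicles from the membrane, and Vps4 is the ATPase that takes the filament apart. VPS4 gave 2821 in rtg3Δ met15Δ, 3159 in met15Δ and 2804 in wild-type cells. VPS20, which starts the filament, gave 1633, 1676 and 2609, and VPS24, which caps it, gave 2287, 2997 and 3433. VPS60, an accessory subunit, gave 1595, 1742 and 1042. None of these 4 reached 2-fold in any comparison. Of the 5498 S. cerevisiae probe sets, most were also within 2-fold: 3964 in met15Δ over wild-type, 4342 in rtg3Δ met15Δ over met15Δ and 3395 in rtg3Δ met15Δ over wild-type.

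Some genes around ESCRT-III without a VPS name passed 2-fold upward in met15Δ relative to wild-type, and others downward in comparisons of the double mutant alone. VTA1, the cofactor of Vps4, gave 1519, 1725 and 487 in rtg3Δ met15Δ, met15Δ and wild-type cells, 3.54-fold higher in met15Δ relative to wild-type. DOA4, which removes ubiquitin from cargo before it enters the vesicle, gave 4269, 1830 and 617, 2.97-fold higher in met15Δ relative to wild-type and a further 2.33-fold higher in the double mutant. The ESCRT-III-related genes CHM7 and DID2 had their lowest signal in the double mutant. CHM7 gave 416, 859 and 522 in rtg3Δ met15Δ, met15Δ and wild-type cells, 2.06-fold lower in rtg3Δ met15Δ than in met15Δ. DID2 gave 1083, 1955 and 2604, 2.41-fold lower in rtg3Δ met15Δ relative to wild-type. Over the 21 ESCRT genes, VPS names and partners together, 6 were higher (28.6%, beside 16.8% over all S. cerevisiae probe sets) and 2 lower (9.52%, beside 11.1%) in met15Δ relative to wild-type. In that comparison 16 of the 21 log2 ratios were above 0 and 5 below, with a median of 0.63.

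**Figure D4:**
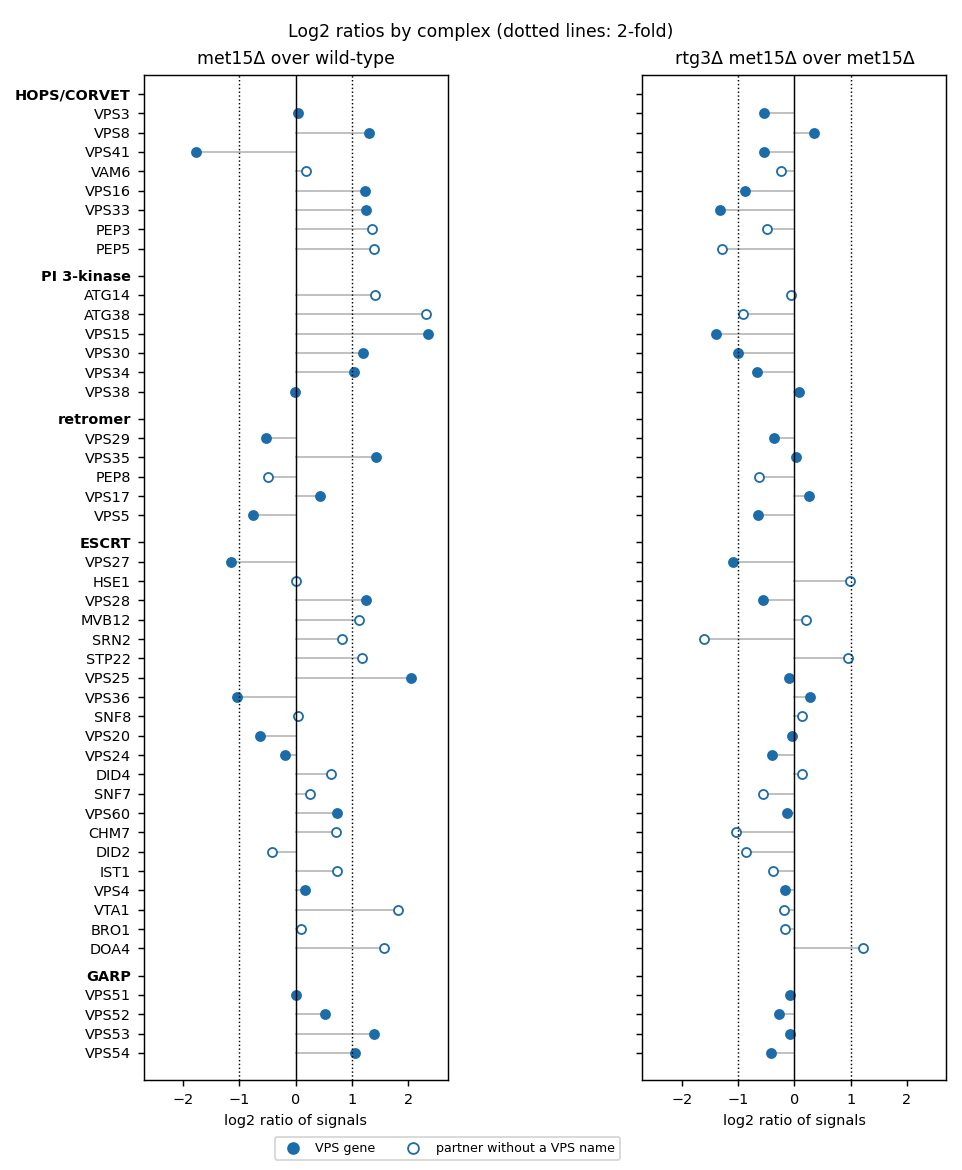
Log2 ratios of signals for the VPS genes (filled) and their partners without a VPS name (open) in the 5 complexes, met15Δ over wild-type (left panel) and rtg3Δ met15Δ over met15Δ (right panel), 1 array per genotype; dotted lines mark 2-fold. The shared HOPS/CORVET and phosphatidylinositol 3-kinase genes lie right of the upper 2-fold line in the left panel, while VPS41 (-1.78), VPS27 (-1.14) and VPS36 (-1.05) lie left of the lower one.

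GARP is a tetramer at the trans-Golgi. VPS53 gave 1074 in rtg3Δ met15Δ, 1132 in met15Δ and 433 in wild-type cells, 2.48-fold above wild-type in rtg3Δ met15Δ and 2.61-fold in met15Δ cells. VPS54 gave 767, 1018 and 491 in the same order, 2.07-fold higher in met15Δ relative to wild-type. Scaled to the median of all probe sets, VPS53 had a log2 ratio of rtg3Δ met15Δ over wild-type of 0.81 and VPS54 one of met15Δ over wild-type of 0.75, both under 2-fold. VPS52 gave 418, 503 and 351 and stayed within 2-fold. VPS51, the subunit that contacts the SNARE Tlg1, gave 217, 229.6 and 229.6, all below the highest signal of the other species, so that no fold can be given. VPS52, VPS53 and VPS54 were within 2-fold between rtg3Δ met15Δ and met15Δ cells, as were 4342 of the 5498 S. cerevisiae probe sets.

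Vps21 is the main yeast counterpart of the Rab5 GTPase, Vps9 its exchange factor, and Vps45 the partner of endosomal SNAREs. VPS21 gave 7413 in rtg3Δ met15Δ, 3697 in met15Δ and 6459 in wild-type cells, the single VPS gene that stood 2-fold higher in the double mutant than in met15Δ (2.01-fold). VPS9 gave 460.1, 884 and 1326 in rtg3Δ met15Δ, met15Δ and wild-type cells, 2.88-fold lower in the double mutant than in wild-type and 1.92-fold lower than in met15Δ. VPS45 gave 1381, 1199 and 838 and stayed within 2-fold. The GTPase and its exchange factor thus had opposite orders in the 2 mutants.

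Among the members tied to membranes, VPS13 and VPS55 had their highest signal in met15Δ cells. VPS13, a bridge-like lipid transfer protein at organelle contact sites, gave 3736 in rtg3Δ met15Δ, 7604 in met15Δ and 2083 in wild-type cells, 3.65-fold higher in met15Δ relative to wild-type and 2.04-fold lower in the double mutant than in met15Δ. VPS55, an endosomal membrane protein, gave 1629, 3349 and 992, 3.38-fold higher in met15Δ relative to wild-type and 2.06-fold lower in the double mutant than in met15Δ. VPS68, whose protein forms a complex with Vps55, gave 6607, 5469.8 and 6220.4. The Vps55 and Vps68 genes thus differed in pattern.

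VPS74, which keeps glycosyltransferases in the Golgi, gave 853 in rtg3Δ met15Δ, 2289 in met15Δ and 2029 in wild-type cells. It was 2.68-fold lower in the double mutant than in met15Δ and 2.38-fold lower than in wild-type, with met15Δ and wild-type within 2-fold of each other. VPS1, the dynamin-like GTPase of endosomes and peroxisomes, gave 1865, 2746 and 1943.

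The 3 members that act on chromatin followed no common course. VPS75, a histone chaperone that assists acetylation of histone H3, gave 349 in rtg3Δ met15Δ, 451 in met15Δ and 208 in wild-type cells, 2.17-fold higher in met15Δ relative to wild-type as measured but at least 1.65-fold against the other-species signal. Its gene shares bases with CWC25 in the current annotation. VPS71 and VPS72, subunits of the SWR1 complex that deposits the histone variant H2A.Z, had log2 ratios of met15Δ over wild-type of -0.67 and -0.50.

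Of the members outside these groups, VPS73 gave 993 in rtg3Δ met15Δ, 763 in met15Δ and 193 in wild-type cells, at least 3.63-fold higher in rtg3Δ met15Δ and at least 2.79-fold higher in met15Δ than wild-type. VPS64, a component of the Far complex that acts in pheromone arrest, gave 2540.1, 2643 and 1086, 2.34-fold above wild-type in rtg3Δ met15Δ and 2.43-fold in met15Δ cells (log2 ratios 0.73 and 0.98, under 2-fold, with the median of all probe sets). VPS62 gave 5593, 3539.9 and 1818, 3.08-fold higher in rtg3Δ met15Δ relative to wild-type and 1.95-fold higher in met15Δ, just short of the threshold. VPS70 stayed within 2-fold (3584, 3609 and 3304). In each of VPS62, VPS64 and VPS73 both mutants stood above wild-type.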

How the data were processed

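Total RNA of 3 cultures was hybridized, 1 array per genotype. The authors background-corrected the scans and deposited RMA intensity values per probe set on the linear scale (RMAExpress); which normalization options were chosen is not given in the sources used here. Genotypes were taken from the labels. Gene symbols came from the platform annotation and were matched to a gene table of assembly R64, used for names and neighbours only. From the deposited intensity values, ratios between arrays were taken with Python 3.11.15 and pandas 2.3.3, and calls used 2-fold without rounding. No p-value was computed. The code for the calls was run on simulated signals without noise, which checks the code and not the calls made here. Alternatives were 3 other scalings, a floor at the highest other-species signal, other membership rules and 1.5-fold. All signals are given for members past 2-fold, for members of the 5 complexes and for most others; of the partners, those past 2-fold are named, with a few others beside them. The members and lists were chosen with earlier results of these data known. No promoter or protein sequence was used here.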

Additional observations from a re-analysis of the deposited data

How the results depend on the processing

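Scaling between the arrays decided how many VPS genes passed, and no VPS gene past 2-fold turned its direction under any setting tried. With the median of all probe sets as the scale, 7 members were higher and 5 lower in met15Δ relative to wild-type (median log2 ratio 0.20), 0 were higher in rtg3Δ met15Δ than in met15Δ (median -0.41), 4 were higher and 11 lower in rtg3Δ met15Δ relative to wild-type (median -0.31, the opposite sign of the deposited signals' 0.19), and 3 were RTG3-dependent. With the S. cerevisiae median as the scale the medians were 0.46, -0.12 and 0.24, with 4 members lower in rtg3Δ met15Δ than in met15Δ and 2 RTG3-dependent. With the bacterial controls 1 member was lower in met15Δ relative to wild-type (median 1.05), 0 were higher and 20 lower in rtg3Δ met15Δ than in met15Δ (median -0.99), the median of rtg3Δ met15Δ over wild-type turned to -0.042, and 12 were RTG3-dependent. These scalings shift all S. cerevisiae probe sets alike: their median log2 ratio of met15Δ over wild-type was -0.24 with all probe sets and 0.61 with the bacterial controls, that of rtg3Δ met15Δ over met15Δ was -0.22 and -0.80, and that of rtg3Δ met15Δ over wild-type was -0.41 and -0.15. The distance of the VPS median from theirs stayed at 0.44, -0.19 and 0.11. At 1.5-fold, 8 members were lower in met15Δ relative to wild-type (20.4% of all S. cerevisiae probe sets), 2 higher and 11 lower in rtg3Δ met15Δ than in met15Δ (19.9% and 24.0%), 16 higher and 9 lower in rtg3Δ met15Δ relative to wild-type (32.6% and 26.8%), and 8 RTG3-dependent. For the RTG3-dependent counts under these other settings, no share over all S. cerevisiae probe sets was taken. They move with the scaling and are no result about the VPS genes. Raising low signals to the highest other-species signal lost VPS75 alone, leaving 15 higher, and both other membership rules gave the same 40 genes. Among the single genes, all probe sets' median took 9 of the 19 calls of met15Δ over wild-type below 2-fold (VPS8, VPS16, VPS28, VPS30, VPS33, VPS34, VPS54, VPS64 and VPS75), and the calls of VPS35, VPS53 and VPS64 in rtg3Δ met15Δ over wild-type. That median lay under the highest other-species signal on each array. Of the same 19 calls, the S. cerevisiae median took only that of VPS34 below 2-fold (log2 ratio 0.99). No paired analysis was possible because each genotype has 1 array.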

Other observations

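The VPS genes can be set beside other genes of the same route. Of the 45 partners without a VPS name, 14 passed 2-fold upward and 0 downward in met15Δ relative to wild-type cells (31.1% and 0%, beside 16.8% and 11.1% over all S. cerevisiae probe sets; median log2 ratio 0.26). In rtg3Δ met15Δ against met15Δ, 1 was higher and 4 lower (2.22% and 8.89%, beside 10.4% and 10.6%), and in rtg3Δ met15Δ relative to wild-type 7 were higher and 4 lower (15.6% and 8.89%, beside 21.1% and 17.2%). RIC1, which with Rgp1 activates the Golgi Rab Ypt6, gave 1825 in rtg3Δ met15Δ, 1212 in met15Δ and 276 in wild-type cells, 6.60-fold above wild-type in rtg3Δ met15Δ and 4.39-fold in met15Δ cells. The wild-type signal of RIC1 lay just above the highest other-species signal there, 273, so the size of these folds is less sure. RGP1, its partner, gave 731, 1009 and 1768 and was 2.42-fold lower in rtg3Δ met15Δ relative to wild-type. The sorting receptor genes PEP1, VTH1 and MRL1 had log2 ratios of met15Δ over wild-type of -0.64, -0.70 and -0.97, all below 0 and within 2-fold. In rtg3Δ met15Δ over wild-type they were -0.85, -0.97 and -1.11, so that MRL1 was 2.16-fold lower there.

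Around the endosomal lipid marks, PEP7, which binds phosphatidylinositol 3-phosphate, was at least 2.10-fold higher in met15Δ relative to wild-type, and FAB1, the kinase that makes the bisphosphate from it, was 2.08-fold higher. VAC14, a scaffold of that kinase, was at least 1.59-fold higher in met15Δ relative to wild-type (2.20-fold as measured), and FIG4, the phosphatase bound to it, was 2.09-fold lower in rtg3Δ met15Δ than in met15Δ. MON1, part of the exchange factor for Ypt7, was 2.31-fold higher in met15Δ relative to wild-type, whereas CCZ1, its partner, had a log2 ratio of -0.11. MUK1, a further exchange factor for Vps21, was 2.19-fold higher.

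Among the 34 ATG genes of autophagy, 15 passed 2-fold upward and 0 downward in met15Δ relative to wild-type (44.1% and 0%, beside 16.8% and 11.1% over all S. cerevisiae probe sets; median log2 ratio 0.87), and 1 was higher and 1 lower in rtg3Δ met15Δ than in met15Δ (2.94% each, beside 10.4% and 10.6%). Of the 15 VMA genes of the vacuolar proton pump, 2 were higher and 0 lower in met15Δ relative to wild-type (13.3% and 0%, beside 16.8% and 11.1%; median 0.12), and their median in rtg3Δ met15Δ over met15Δ was -0.44. Both lists count here as descriptions, and differences among them were not tested.

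VPS52, VPS72 and VPS60 are neighbours on 1 chromosome in the current annotation, and their log2 ratios of met15Δ over wild-type were 0.52, -0.50 and 0.74. The 28 probe sets for S. pombe genes with vps names gave medians of 26.9, 28.7 and 28.2 in rtg3Δ met15Δ, met15Δ and wild-type cells, and none passed 59.2. VPS63 and VPS501, listed in the current gene table, have no probe set of that name here.

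Limits rest on the absence of replicates. How far cultures of 1 genotype vary is unknown, so the members closest to 2-fold (VPS9, VPS13, VPS15, VPS21, VPS27, VPS30, VPS34, VPS36, VPS54, VPS55 and VPS62, each in 1 or more comparisons) can fall on either side. Members further from 2-fold are not thereby secure, and several of their calls were lost under another scaling, as listed above. The ratios of 3′ to 5′ signal of the control genes had no common order. Those of ACT1, TDH1, RIP1 and EAF5 were highest in wild-type cells, whereas those of SRB4, WBP1 and SPT15 were lowest there. That of ACT1 was 2.37 in rtg3Δ met15Δ, 2.24 in met15Δ and 2.99 in wild-type cells, while that of SRB4 was 12.9, 10.4 and 9.27, that of WBP1 5.47, 5.24 and 4.38, and that of SPT15 2.60, 3.84 and 2.22. Their part in the VPS ratios was not tested. Over the 40 members, Spearman's rho of the log2 ratio with gene length was 0.24 in met15Δ over wild-type and -0.20 in rtg3Δ met15Δ over met15Δ, beside -0.02 and -0.19 over all 5498 probe sets; the points share 2 arrays.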
